A study of Mus musculus with 16 samples.

Results

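The genes that were highest in formative stem cells (FS cells) were described in bulk RNA sequencing of cultured mouse pluripotent cells. A gene was a member when its mean over the FS libraries was at least 3 CPM (each count as a share of its library's total, scaled to a common depth), was at least 2 times the mean of each of the 3 other groups, and when its lowest FS library lay above the highest library of every other group. Of the 34042 genes in the deposited table, 139 were members, out of 12333 with a mean of at least 3 CPM in FS cells, or 1.127%. A further 3 genes met the thresholds and were dropped by name under the same rule. The members were therefore chosen by their FS levels, and every comparison of FS with another group below is a description that was not tested.

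The 16 libraries fell into 4 groups of cultured lines. FS cells in A3XR medium gave 6 libraries, from passages 10, 12 and 14 of the line 5ar1 (FS 1 to FS 3) and passages 12, 4 and 5 of the line 5ar3 (FS 4 to FS 6). For epiblast stem cells (EpiSCs) there were 3 libraries from AF32, a line kept in AF (EpiSC_AF, passages 13 to 15), and 3 from AFX6, kept in AFX (EpiSC_AFX, passages 12, 5 and 8). The ES group had 4 libraries from passages 12, 13, 15 and 20 of E14IV-C, embryonic stem cells kept in 2iL. As background from the published protocols, A stands for activin, X for the Wnt pathway inhibitor XAV939, R for a retinoic acid receptor inverse agonist and F for the growth factor FGF2, while 2iL combines inhibitors of MEK and GSK3 with the cytokine LIF. Replicates were passages of a line, so p-values measure only the spread between these cultures, which may be technical. Outside FS each medium was represented by 1 line, so line and medium cannot be told apart.

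Formative pluripotency is the phase of the epiblast between the naive state, held by ES cells in 2iL, and the primed state, held by EpiSCs, in which cells gain competence for the germ line and for the body lineages. Cells passing through it switch off naive factors such as Zfp42 and Esrrb and switch on Otx2, Dnmt3b and other epiblast genes while keeping Pou5f1. Many of the members are better known from neurons, where receptors, channels, adhesion molecules and vesicle proteins build synapses, and in bulk RNA fewer cells with a transcript and less transcript per cell cannot be told apart.

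Library totals ranged from 22069338 to 33290250 counts. Genes of the mitochondrial genome took 11.9% to 27.9% of the counts in FS, 18.1% to 29.4% in EpiSC_AFX, 19.6% to 25.7% in EpiSC_AF and 22.02% to 43.2% in ES, with the highest share in ES 1. Because CPM is a share of the total, the members were sought again under 3 other scalings. These were TMM, DESeq2 size factors and totals without mitochondrial genes, and 108 of the 139 passed under all of them. The other 31 failed under at least 1, and not all of them, such as Nhs, Draxin and Fbxo2, are marked where named below. The labels were checked against marker lists. The summed level of 12 naive genes was 46.0 to 90.3 CPM in FS and 1801 to 4032 CPM in ES, with Zfp42 at most at 0.121 CPM in FS. The postimplantation epiblast list, with 16 genes in the table, summed to 1654 to 3656 CPM in FS, 1781 to 2369 CPM in EpiSC_AFX, 1593 to 2202 CPM in EpiSC_AF and 195.5 to 539.7 CPM in ES. The naive list was at 63.1 to 88.5 CPM in EpiSC_AFX and 60.9 to 83.9 CPM in EpiSC_AF, so these lists set FS apart from ES and not from the EpiSCs. Of the postimplantation epiblast list 1 gene, Sox3, was a member. A list of 18 neural progenitor and neuron genes summed to 607 to 1137 CPM in FS, 684 to 992 CPM in EpiSC_AFX, 832 to 1116 CPM in EpiSC_AF and 114 to 235 CPM in ES. The part of this list in the members' levels was not tested. Fibroblast, extraembryonic endoderm, trophoblast and germ cell lists summed to at most 37.96, 17.3, 3.33 and 2.26 CPM in any FS library.

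Wdr86 and Sorcs1 are the 2 genes that mark the set, and the bases upstream of their RefSeq starts (GRCm38.p6) are shown for that reason. Wdr86, which encodes a WD repeat protein, lies at chr5:24711738-24730727. The stretch shown is chr5:24730728-24730930 on the minus strand, 203 bases that end where the annotated gene begins. Sorcs1, which encodes a sorting receptor with a VPS10 domain, lies at chr19:50143299-50678646, and its stretch is the 250 bases at chr19:50678647-50678896 on the minus strand. Capitals mark CACGTG, known as the E-box, in the first, and GGGCGG read on the opposite strand (the GC box) in the second.
Wdr86: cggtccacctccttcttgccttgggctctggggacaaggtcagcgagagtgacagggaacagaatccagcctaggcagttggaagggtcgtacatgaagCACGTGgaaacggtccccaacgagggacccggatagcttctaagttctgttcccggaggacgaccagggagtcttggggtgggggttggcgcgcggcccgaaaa
Sorcs1: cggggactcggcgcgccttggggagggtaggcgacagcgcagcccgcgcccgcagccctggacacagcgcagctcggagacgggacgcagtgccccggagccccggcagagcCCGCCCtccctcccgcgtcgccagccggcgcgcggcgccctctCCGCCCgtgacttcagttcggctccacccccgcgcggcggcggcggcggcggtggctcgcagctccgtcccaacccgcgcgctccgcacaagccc
Over the full 250 bases before each start, the Wdr86 window held 62% G and C and 13 CG dinucleotides, and the Sorcs1 window held 79.6% and 41. The medians over 32851 RefSeq windows of that length were 52.4% and 6. CACGTG was found 1 time before Wdr86, and 6.021% of all windows held it on either strand. GGGCGG was found 2 times before Sorcs1 and occurred in 32.74% of windows. TATAAA and CCAAT, held by 12.37% and 33.85% of windows, and the RE1 motif of the neuronal repressor REST, held by 0.05784%, were not found in these 2 windows. Only 95 of the 139 members (68.35%) had an entry in the RefSeq table, so motifs were not compared over the set.

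One member is a microRNA locus, Mir302a, and it is shown because its family is a known mark of pluripotent and epiblast cells. Its hairpin lies at chr3:127545496-127545564 on the plus strand, inside the annotated span of Larp7, which runs on the other strand. In the hairpin, capitals mark the 5p arm, and in the mature 5p arm they mark the seed, bases 2 to 8. The sequence reference used held no mature entry for the other arm, which is therefore not marked. The 5p seed is not given as the seed of the family.
Mir302a hairpin: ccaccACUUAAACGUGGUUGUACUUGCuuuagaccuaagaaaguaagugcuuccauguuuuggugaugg
mmu-miR-302a-5p: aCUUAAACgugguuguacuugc
Counts over the hairpin locus were not a measure of the mature molecule. Mir302a was at 3.97 to 29.3 CPM (median 10.4) in FS, against 2.24, 1.01 and 2.91 CPM in EpiSC_AFX, 3.34, 3.28 and 2.58 in EpiSC_AF and 0.0864, 0.167, 0 and 0.0812 in ES. All FS libraries lay above all others, as the rule requires, with the lowest of them, FS 3, close to the highest EpiSC_AF library. The neighbouring Mir302b, Mir302d and Mir367 averaged 4.32 ± 2.75, 2.22 ± 1.43 and 4.25 ± 3.23 CPM in FS (SD, n = 6) and were not members. Their FS libraries overlapped EpiSC_AF, with the lowest in FS at 1.58, 0.811 and 1.58 CPM and the highest in EpiSC_AF at 2.78, 1.78 and 3.56 CPM. Mir302c had at most 4 counts in a library of FS.

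Across the set, mean FS levels ran from 3.03 to 172.5 CPM with a median of 7.20. The ratio of the FS mean to the next highest group ran from 2.01 to 37.1 with a median of 3.15. It was at least 4 for 38 members, at least 10 for 9 and under 3 for 62. The next highest group was EpiSC_AFX for 78 members, EpiSC_AF for 51 and ES for 10. ES was the lowest group for 111 members, EpiSC_AF for 18 and EpiSC_AFX for 10. The most frequent order was FS, EpiSC_AFX, EpiSC_AF, ES, which held for 65 members, followed by FS, EpiSC_AF, EpiSC_AFX, ES for 46. In ES, 25 members had at most 3 counts in each of the 4 libraries. The median ratio of FS to EpiSC_AFX was 3.44, to EpiSC_AF 4.01 and to ES 25.6, where ES groups averaging 3 counts or fewer were set to 3 counts in each library.

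**Figure D1:**
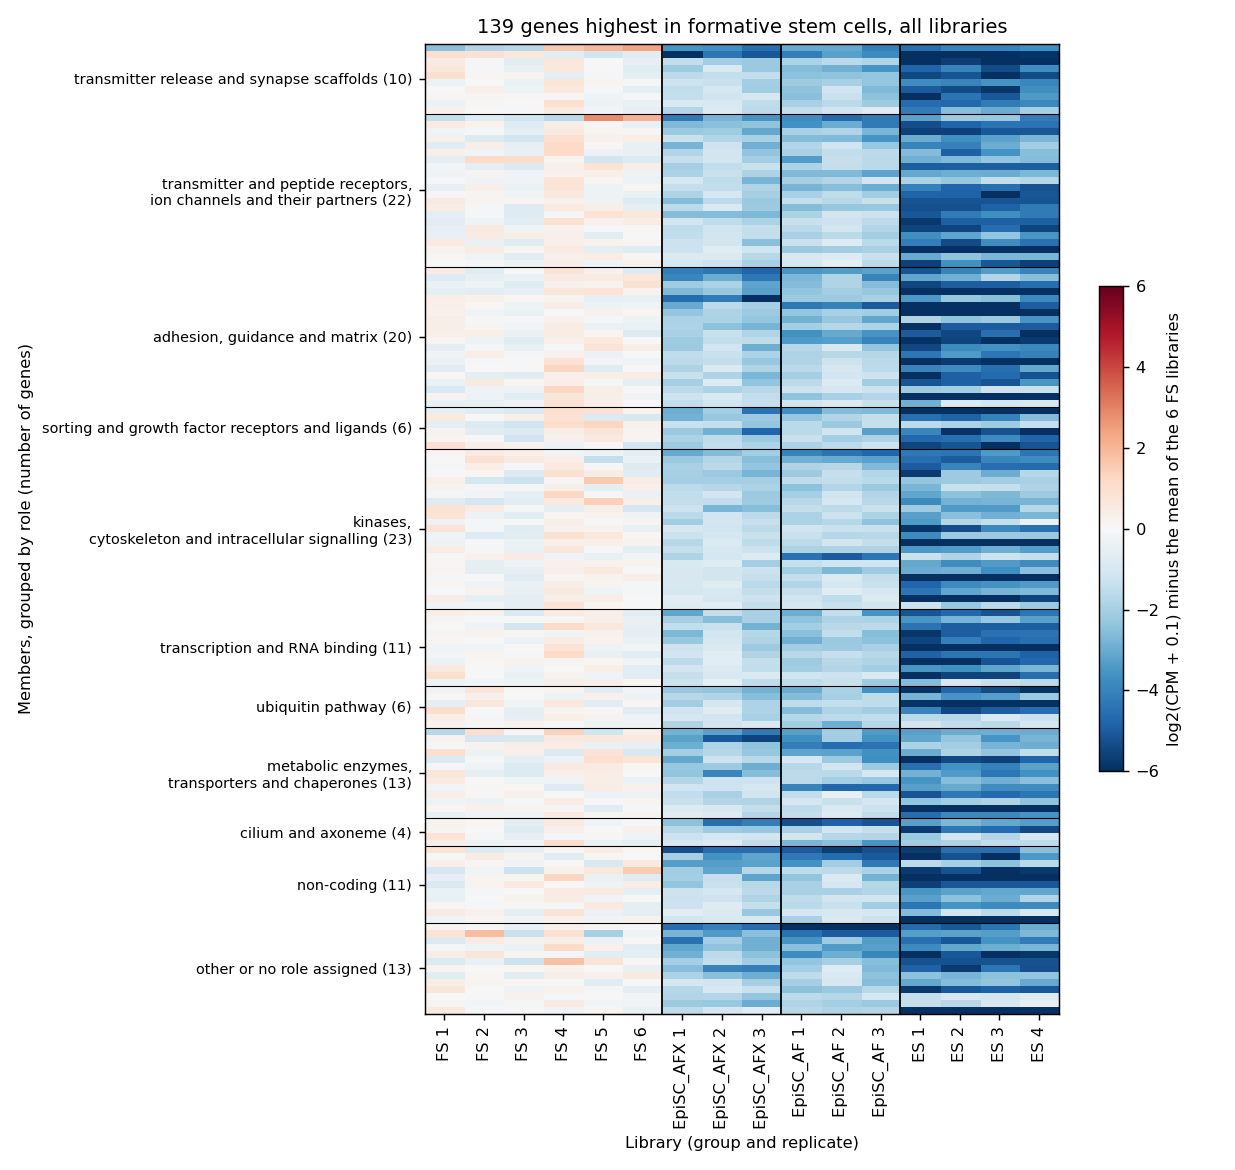
Each row is 1 of the 139 members and each column 1 library. Colour gives log2(CPM + 0.1) minus the gene's mean over the 6 FS libraries, from 6 below (dark blue) to 6 above (dark red), with rows grouped by role and sorted within a role by the ratio of FS to the next group. The 4 ES columns are darkest in most rows, and the 6 EpiSC columns lie between ES and FS.

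Summed over the set, the members took 1792 to 2779 CPM in FS, 727, 886 and 614 CPM in EpiSC_AFX, 553, 670 and 568 CPM in EpiSC_AF, and 106, 156, 171 and 216 CPM in ES. The FS libraries did not contribute evenly. FS 4 was the highest FS library for 60 members, FS 1 for 26 and FS 5 for 22, while FS 3 was the lowest for 45 and FS 6 for 40. FS 6 also had the largest mitochondrial share of the FS libraries, 27.9%, and FS 3 the smallest, 11.9%. At the edge of the fold rule, Cerk had a ratio of 2.01, Ank2 of 2.02 and 2610307P16Rik of 2.02 inside it, and Adgrv1 had 1.995, Efna5 1.986 and Clstn3 1.984 outside it.

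Genes of transmitter release and synapse scaffolds gave 10 members, with FS means of 4.97 to 57.6 CPM. Slc17a6 encodes the vesicular glutamate transporter VGLUT2. It ranged over 3.71 to 15.96 CPM (median 9.03) in FS, against 0.0355, 0.311 and 0.150 CPM in EpiSC_AFX, 0.374, 0.784 and 0.515 in EpiSC_AF and 0, 0, 0 and 0.0406 in ES. The FS libraries of 5ar1 were all above those of 5ar3, and both lay well above every other library. Syt6, a synaptotagmin of vesicle fusion, had the largest ratio of the set, 37.1, over EpiSC_AF. Its level was 0.299, 0.569 and 0.594 CPM in the 5ar1 libraries and 7.07, 8.99 and 12.3 CPM in the 5ar3 libraries. The ratio of Syt6 thus rested on 5ar3, since 5ar1 alone did not pass the minimum of 3 CPM. The exons of Syt6 overlap those of Atg4a-ps on the other strand, at 2.83 CPM in FS, so its counts are uncertain. Doc2a, a calcium sensor of vesicle release, was at 9.11 to 27.8 CPM (median 14.2) in FS, 4.65, 5.02 and 4.99 in EpiSC_AFX, 2.40, 2.49 and 2.72 in EpiSC_AF and 0.216, 0.292, 0.0841 and 0.244 in ES. The exons of Doc2a overlap those of Ino80e on the other strand, which was at 60.5 CPM in FS, so its counts are uncertain. Syt7, another synaptotagmin, averaged 23.6 ± 10.1 CPM (SD, 6 libraries) in FS and 10.4 ± 2.35 CPM (SD, 3 libraries) in EpiSC_AFX. Shank2, a scaffold of the postsynaptic density, averaged 13.96 ± 5.09 in FS, 3.47 ± 1.01 in EpiSC_AFX, 3.82 ± 0.416 in EpiSC_AF and 0.0725 ± 0.0711 CPM (SD, 4 libraries) in ES. Camkv, a kinase-like protein of synapses, was the most abundant of the group at 57.6 ± 17.9 CPM (SD, 6 libraries) in FS against 19.6 ± 5.32 CPM (SD, 3 libraries) in EpiSC_AFX. The remaining members were Bzrap1, Apba2, Hid1 and Sez6l2, with ratios of 2.90, 2.33, 2.23 and 3.38 over the next group.

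Receptors for transmitters and peptides, ion channels and their partners gave 22 members. Penk encodes proenkephalin, the precursor of opioid peptides. Its level was 0.854, 1.42 and 1.04 CPM in 5ar1 and 0.725, 18.4 and 10.9 CPM in 5ar3, against 0.0355, 0.273 and 0.120 in EpiSC_AFX, 0.0936, 0 and 0.0368 in EpiSC_AF and 0.173, 0.459, 0.421 and 0.0406 in ES. FS 5 and FS 6, the early passages of 5ar3, carried nearly all of the FS mean, and FS 4 of the same line was below the 5ar1 libraries. The nociceptin receptor gene Oprl1 averaged 5.85 ± 2.67 CPM (SD, 6 libraries) in FS and 2.02 ± 0.242 CPM (SD, 3 libraries) in EpiSC_AF. Npy1r, a receptor for neuropeptide Y, averaged 4.83 ± 0.951 CPM (SD, 6 libraries) in FS and 2.29 ± 0.780 CPM (SD, 3 libraries) in EpiSC_AF. Hrh3, a histamine receptor, had a ratio of 6.89 over EpiSC_AFX, with 2.23 to 5.38 CPM (median 4.34) in FS and 0.533, 0.584 and 0.631 CPM in EpiSC_AFX. Each of these 3 receptors was higher in every FS library than in any other, as the rule requires of all members.

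Glutamate receptor subunits were represented by Grin2b of the NMDA type and Grik2 of the kainate type. Grin2b was at 3.15 to 6.98 CPM (median 4.89) in FS, 0.959, 1.01 and 0.481 in EpiSC_AFX, 1.15, 1.32 and 0.625 in EpiSC_AF and 0, 0, 0.0421 and 0.0406 in ES. Grik2 averaged 3.59 ± 1.65 in FS, 0.450 ± 0.0255 in EpiSC_AFX and 1.199 ± 0.351 CPM in EpiSC_AF. Inhibitory and cholinergic channels were also present at low levels. The GABA receptor subunit gene Gabra3 averaged 6.50 ± 1.73 CPM (SD, 6 libraries) in FS and 2.37 ± 0.279 CPM (SD, 3 libraries) in EpiSC_AFX. Chrna7, a nicotinic acetylcholine receptor subunit, averaged 11.1 ± 2.84 CPM (SD, 6 libraries) in FS and 5.21 ± 0.946 CPM (SD, 3 libraries) in EpiSC_AF, and the serotonin-gated channel gene Htr3a averaged 5.38 ± 2.01 CPM (SD, 6 libraries) in FS and 1.67 ± 0.229 CPM (SD, 3 libraries) in EpiSC_AFX. Among the potassium channel genes, Kcng3 averaged 3.87 ± 2.64, Kcna6 3.21 ± 1.40 and the subunit gene Kcnab2 3.14 ± 1.65 CPM in FS (SD, n = 6). Kcng3 had the narrowest margin of the set, with its lowest FS library at 1.01 times the highest other library. Hcn4, a pacemaker channel, was at 5.12, 3.38 and 3.01 CPM in 5ar1 and 9.70, 3.18 and 3.04 CPM in 5ar3, with FS 4 apart from the other FS libraries. Jph4, a junctophilin that joins plasma membrane and endoplasmic reticulum, was the most abundant of the group at 42.7 ± 13.8 CPM (SD, 6 libraries) in FS, against 19.5 ± 4.06 CPM (SD, 3 libraries) in EpiSC_AFX. Chrna7, Npy1r, Kcng3, Kcna6, Kcnab2, Pex5l and Jph4 dropped out of the set under at least 1 of the other scalings.

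Adhesion, guidance and matrix genes gave 20 members. Lrrc4b, a leucine-rich repeat protein of excitatory synapses, was at 8.20, 7.61 and 8.42 CPM in 5ar1 and 19.3, 21.1 and 13.7 CPM in 5ar3, at 1.81, 2.41 and 1.14 in EpiSC_AFX, at 2.22, 2.85 and 2.39 in EpiSC_AF and at 0 in all 4 ES libraries. Against the ES limit of 3 counts in each library, its FS mean was at least 104-fold higher. Lrrn1, another leucine-rich repeat protein of neural tissue, was at 33.5 to 53.6 CPM (median 47.1) in FS, 9.02, 12.2 and 9.82 in EpiSC_AFX, 9.05, 11.6 and 10.6 in EpiSC_AF and 0, 0.125, 0.0421 and 0.203 in ES. In both genes the EpiSC groups were of similar level. Ncan encodes neurocan, a proteoglycan of brain matrix, and averaged 59.8 ± 21.2 CPM (SD, 6 libraries) in FS, 25.2 ± 5.62 CPM (SD, 3 libraries) in EpiSC_AFX, 14.002 ± 3.15 CPM (SD, 3 libraries) in EpiSC_AF and 0.229 ± 0.144 CPM (SD, 4 libraries) in ES. Loxl1, an enzyme that cross-links elastin, had the widest margin, with its lowest FS library at 6.83 times the highest other library. It was at 2.01 to 6.03 CPM (median 3.88) in FS and at most at 0.294 CPM elsewhere. Ephb1, a receptor for ephrins, was at 4.65, 5.62 and 6.05 CPM in 5ar1 and 11.2, 11.001 and 12.6 CPM in 5ar3, and its next highest group was ES with 0.821, 1.001, 2.27 and 1.26 CPM. The cadherins Cdh22 and Dchs2 averaged 10.4 ± 3.20 and 4.55 ± 1.95 CPM in FS (SD, n = 6). The immunoglobulin superfamily gave Igsf10, Cadm3 and Thy1, of which Thy1 averaged 14.5 ± 4.51 CPM (SD, 6 libraries) in FS and 4.28 ± 1.07 CPM (SD, 3 libraries) in EpiSC_AFX. Thy1 was also 1 of the 8 genes of the fibroblast list. In FS, Col1a2 of that list averaged 8.19 CPM, Col1a1 1.78 and Dcn 1.53, and Lum alone had at most 3 counts in each FS library. Their part in the level of Thy1 was not tested. Astn1 and Astn2, a pair of membrane proteins of neuronal migration, were both members, with ratios of 2.87 and 3.86 over the next group.

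Sorting receptors, growth factor receptors and ligands gave 6 members. Sorcs1 was at 8.58, 7.57 and 6.75 CPM in 5ar1 and 24.2, 23.2 and 14.3 CPM in 5ar3, against 1.53, 2.88 and 0.481 in EpiSC_AFX, 0.874, 1.92 and 1.88 in EpiSC_AF and 0, 0, 0.0421 and 0.0406 in ES. Every FS library was above the highest EpiSC library, as the rule requires. The 5ar3 libraries were above the 5ar1 libraries. Of the other genes with a VPS10 domain, Sort1 averaged 147.5 CPM in FS and 123.4 CPM in EpiSC_AFX, and Sorl1, Sorcs2 and Sorcs3 were not members either. S1pr3, a receptor for sphingosine 1-phosphate, was at 5.59, 4.66 and 3.56 CPM in 5ar1 and 17.3, 20.3 and 10.1 CPM in 5ar3. Group means elsewhere were 2.45 to 2.60 CPM, and S1pr3 left the set under each of the other scalings. Dll1, a ligand of Notch receptors, was at 7.57 to 21.8 CPM (median 14.9) in FS, 2.77, 1.71 and 0.391 in EpiSC_AFX, 4.24, 5.67 and 1.29 in EpiSC_AF and 0.778, 0.125, 0.252 and 0.0406 in ES. No other gene of the Notch list was a member, and 9 of its 14 genes with at least 3 CPM had their highest mean in FS, or 64.3%, beside 40.6% of all such genes. Gfra2, a coreceptor for neurturin, averaged 5.71 ± 2.75 CPM (SD, 6 libraries) in FS and 1.41 ± 0.436 CPM (SD, 3 libraries) in EpiSC_AF.

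The largest group, with 23 members, was of kinases, cytoskeleton and intracellular signalling. Ank2 encodes ankyrin B, which ties membrane proteins to the cytoskeleton, and had the highest mean of the set. Its FS libraries were at 114 to 219.6 CPM (median 188), against 103, 83.4 and 70.6 in EpiSC_AFX, 71.8, 57.1 and 89.8 in EpiSC_AF and 1.34, 2.42, 2.23 and 3.57 in ES. FS 2 and FS 3, at 114 and 115 CPM, lay close to EpiSC_AFX 1, and Ank2 did not pass the rule under any of the other scalings. Tubb3, a beta tubulin of neurons, was at 68.0 to 108 CPM (median 82.0) in FS, 19.7, 39.6 and 31.8 in EpiSC_AFX, 22.5, 26.0 and 15.5 in EpiSC_AF and 7.99, 24.8, 31.6 and 63.2 in ES. ES 4 came near the lowest FS library in Tubb3, which was also lost under each of the other scalings. The most abundant of the remaining members of the group were Mapk8ip2, a scaffold of the JNK pathway, at 51.2 ± 17.6 CPM (SD, 6 libraries), Ppp1r1a, an inhibitor of protein phosphatase 1, at 43.7 ± 20.7, Nuak2, a kinase of the AMPK family, at 39.4 ± 29.1, Nhs at 37.9 ± 7.08 and Pak3, a p21-activated kinase, at 34.1 ± 7.54 CPM in FS. Jakmip2, a microtubule-associated protein, was at 22.6 to 35.9 CPM (median 30.5) in FS, 9.16, 16.2 and 9.97 in EpiSC_AFX, 9.86, 13.5 and 10.9 in EpiSC_AF and 0, 0, 0 and 0.0406 in ES. It combined a clear margin in FS with an ES level near 0. Phactr3 and Dgki, an actin and phosphatase regulator and a diacylglycerol kinase, had the largest ratios of the group, 6.83 and 5.20.

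**Figure D2:**
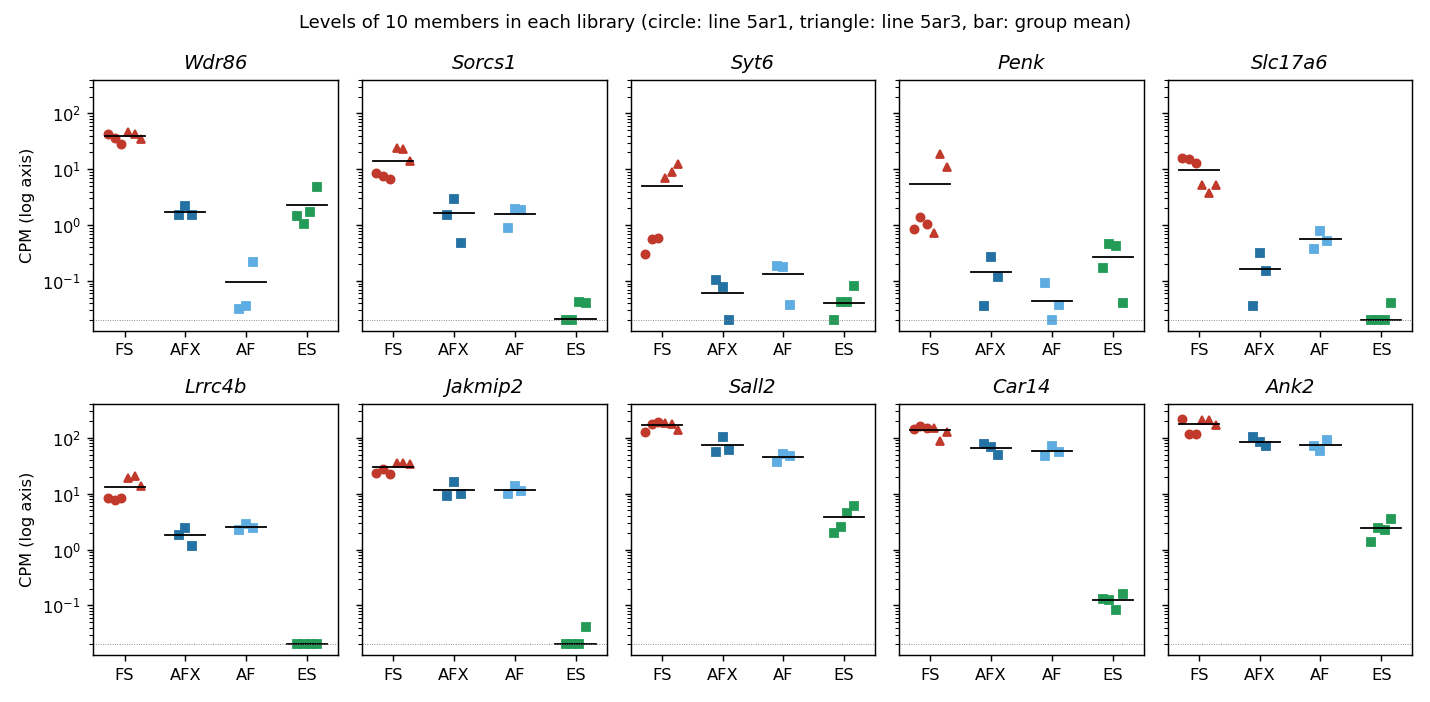
Each point is 1 library of 10 members, in CPM on a log axis, with the group means as bars and values of 0 drawn at the dotted line (0.02). Circles are 5ar1, triangles 5ar3 and squares the other lines. The 2 formative lines are far apart for Syt6 and close for Wdr86 and Sall2.

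Transcription and RNA-binding genes gave 11 members. Sall2, a zinc finger factor of the spalt family, was at 128 to 192 CPM (median 178) in FS, 56.1, 101 and 61.0 in EpiSC_AFX, 36.9, 52.1 and 46.9 in EpiSC_AF and 1.99, 2.54, 4.499 and 6.09 in ES. The 2 formative lines were of equal mean, 166 CPM, and the highest other library, EpiSC_AFX 2, reached 101 CPM. Its relative Sall4, a core pluripotency factor, was not a member. Myb, a transcription factor of progenitor cells, was at 42.2 to 93.0 CPM (median 64.2) in FS, 29.3, 36.4 and 23.3 in EpiSC_AFX, 15.3, 19.1 and 15.01 in EpiSC_AF and 5.70, 5.00, 7.02 and 9.54 in ES. Its level was thus graded over all 4 groups, with no overlap between neighbouring groups, a gap that the rule itself set for FS. Sox3, a SoxB1 factor of epiblast and neural plate, averaged 9.20 ± 4.05 CPM (SD, 6 libraries) in FS and 4.13 ± 0.789 CPM (SD, 3 libraries) in EpiSC_AFX. It did not pass with TMM or DESeq2 size factors. Elavl3 and Celf3, a pair of neuronal RNA-binding proteins, averaged 10.9 ± 2.21 and 3.81 ± 1.37 CPM in FS (SD, n = 6), against 3.23 ± 1.69 and 0.802 ± 0.464 CPM in EpiSC_AFX (SD, n = 3). Prmt8, an arginine methyltransferase known from brain, had a ratio of 4.27 and little spread, with 6.08 to 10.4 CPM (median 8.61) in FS.

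Enzymes, transporters and chaperones gave 13 members. Car14, a membrane carbonic anhydrase, was at 86.6 to 160.2 CPM (median 146) in FS, 76.8, 69.6 and 49.8 in EpiSC_AFX, 46.9, 71.4 and 54.9 in EpiSC_AF and 0.130, 0.125, 0.0841 and 0.162 in ES. ES held only 2 to 4 counts in a library, and all 6 EpiSC libraries were far above that. Car14 did not pass the rule under any of the other scalings, and its exons overlap those of Aph1a. Crabp2, a carrier of retinoic acid, was at 19.98, 33.3 and 24.0 CPM in 5ar1 and 28.5, 73.1 and 63.6 CPM in 5ar3, against 4.16, 15.1 and 11.1 in EpiSC_AFX, 18.0, 7.55 and 2.72 in EpiSC_AF and 0.389, 0.751, 0.631 and 1.22 in ES. EpiSC_AF 1 came close to FS 1, and Crabp2 too was lost under each of the other scalings. It was the only member on the list of retinoic acid receptors and targets, of which 11 genes were at 3 CPM or more in FS. Abca4, a retinoid transporter of photoreceptors, averaged 3.60 ± 0.733 CPM (SD, 6 libraries) in FS and 1.61 ± 0.801 CPM (SD, 3 libraries) in EpiSC_AF. Pygl, a glycogen phosphorylase, was at 2.95 to 9.47 CPM (median 7.84) in FS and at most at 1.35 CPM elsewhere. Csgalnact1, an enzyme of chondroitin sulfate synthesis, had a ratio of 10.9 with widely spread FS libraries, at 0.854, 6.01 and 3.34 CPM in 5ar1 and 7.57, 1.25 and 3.71 CPM in 5ar3. Acot1, an acyl-CoA thioesterase, and the heat shock gene Hspa1a averaged 13.6 ± 3.68 and 5.47 ± 3.06 CPM in FS (SD, n = 6), and both have near-identical copies, Acot2 and Hspa1b, with which reads can be shared.

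Smaller groups were 6 genes of the ubiquitin pathway, 4 of cilium and axoneme and 11 non-coding genes. Hecw1, a ubiquitin ligase, had the largest ratio of its group, 6.26, and Fbxo2 and Fbxo44, a pair of F-box genes 138 bases apart, had ratios of 2.52 and 2.53. Magel2, an imprinted partner of ubiquitin ligases, was at 8.30 to 21.6 CPM (median 13.3) in FS, 3.09, 6.62 and 3.60 in EpiSC_AFX, 4.59, 4.88 and 4.56 in EpiSC_AF and 0.130, 0, 0 and 0.0812 in ES. The imprinted RNA gene Peg13 was at 4.17 to 9.14 CPM (median 6.92) in FS, 1.63, 0.467 and 0.661 in EpiSC_AFX, 0.250, 0.178 and 0.110 in EpiSC_AF and 0, 0.0834, 0 and 0.528 in ES. These were the 2 members among 36 imprinted genes with at least 3 CPM in FS. Spag16, a protein of the ciliary axoneme, was at 3.34 to 7.16 CPM (median 5.04) in FS and at most at 0.817 CPM elsewhere. Miat, a long non-coding RNA of retina and heart, was at 28.3, 44.5 and 44.7 CPM in 5ar1 and 99.8, 30.5 and 24.7 CPM in 5ar3, with FS 4 more than 2 times any other FS library, and EpiSC_AF 2 reached 21.9 CPM. Gm15283 had a ratio of 20.8, but its exons overlap those of Hif1a on the other strand, at 193 CPM in FS. The predicted genes Gm10800 and Gm26870 resemble other predicted genes in sequence, and how reads were divided among such copies was not tested.

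Wdr86, of no assigned role, was at 28.9 to 45.8 CPM (median 39.7) in FS, 1.49, 2.18 and 1.502 CPM in EpiSC_AFX, 0.0312, 0.0356 and 0.221 in EpiSC_AF and 1.47, 1.04, 1.72 and 4.83 in ES. Its lowest FS library was 5.98 times the highest other library, ES 4, and the EpiSC_AF libraries were lowest. Mpped1, a predicted phosphodiesterase of brain, was at 2.01, 2.70 and 1.45 CPM in 5ar1, 12.6, 6.33 and 3.89 CPM in 5ar3 and 0 in all ES libraries.

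Comparisons that were not themselves criteria of the rule were tested next. The rule did use the levels of all 16 libraries, while the genes of the background were not chosen by it. How far this shaped the counts was not tested. The first comparison was of the 2 formative lines. These shared the medium and differed in line and in passage. By edgeR's quasi-likelihood test with Benjamini-Hochberg adjustment over 18555 genes, 12 of the 139 members differed between 5ar1 and 5ar3, with 3.88% of all tested genes called. Of the 12, 1 was higher in 5ar1, where the background was 1.86%, and 11 were higher in 5ar3, where it was 2.02%. Over all members the median log2 fold change of 5ar1 against 5ar3 was -0.24, beside -0.01 over all tested genes. The CPM values did not overlap for 30 members higher in 5ar3 (background 8.18%) and for 9 higher in 5ar1 (background 10.3%). Of the 18 genes of the neural progenitor and neuron list, 5 were called higher in 5ar3 and 0 in 5ar1, and the part of such cells in the members' difference was not tested.

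Among the genes called, Syt6 differed most, with a log2 fold change of -4.34 ± 0.50 (SE, adjusted p = 9.67e-05 by edgeR), from 0.487 ± 0.164 CPM (SD, 3 libraries) in 5ar1 and 9.45 ± 2.64 CPM (SD, 3 libraries) in 5ar3. S1pr3 had a log2 fold change of -1.83 ± 0.33 (SE, adjusted p = 0.00446 by edgeR), and Cdk5r1, the activator of the neuronal kinase Cdk5, had -1.72 ± 0.29 (SE, adjusted p = 0.00262 by edgeR). For both, all 3 libraries of 5ar3 lay above all 3 of 5ar1. Sorcs1 averaged 7.64 ± 0.915 CPM (SD, 3 libraries) in 5ar1 and 20.6 ± 5.45 CPM (SD, 3 libraries) in 5ar3 and passed narrowly, with a log2 fold change of -1.47 ± 0.39 (SE, adjusted p = 0.0420 by edgeR). Lrrc4b, Ppp1r1a, Oprl1, Mpped1, Nuak2, Mir302a and Penk were the remaining genes called higher in 5ar3, with log2 fold changes from -3.27 for Penk to -1.16 for Ppp1r1a. Nuak2 and Penk overlapped between the lines all the same, since FS 1 of 5ar1 was above FS 4 of 5ar3 in both. The call of Penk was lost under 9 of 15 alternatives, leaving out any 1 library but FS 4 among them, and with passage as a covariate its log2 fold change was -0.10 (adjusted p = 0.99 by edgeR). Syt6 passed the filter on low counts only in the fit with all groups, as the FS libraries alone left 138 of the 139 members. Slc17a6 went the other way, with 14.6 ± 1.65 CPM (SD, 3 libraries) in 5ar1, 4.76 ± 0.912 CPM (SD, 3 libraries) in 5ar3 and a log2 fold change of 1.54 ± 0.35 (SE, adjusted p = 0.02004 by edgeR). The call of Slc17a6 was lost under 6 of 15 alternatives, with adjusted p by edgeR of 0.0626 with passage as a covariate, 0.642 against a log2 change of 1, and 0.0509 to 0.0917 without FS 2, FS 3, FS 4 or FS 5. By contrast, Wdr86 averaged 36.2 ± 7.03 CPM (SD, 3 libraries) and 41.0 ± 5.67 CPM (SD, 3 libraries) in the 2 lines, and its log2 fold change of -0.24 (SE 0.36) did not pass (adjusted p by edgeR = 0.774). The count of 12 fell to 4 without FS 3, 5 without FS 2, 6 without FS 5 and 7 without FS 6. With passage as a covariate 7 members passed, of which 6 were among the 12.

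**Figure D3:**
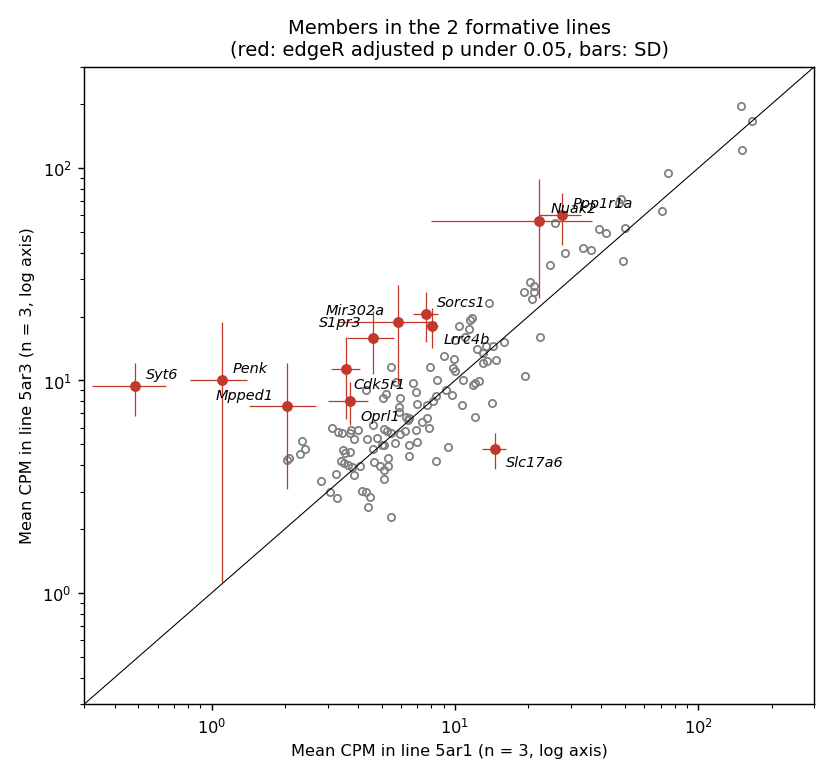
Each circle is 1 of the 139 members, placed by its mean CPM in line 5ar1 and in line 5ar3, both on log axes, with the diagonal as the line of equal level. Red circles with SD bars are the 12 members called by edgeR, of which 11 lie above the diagonal and Slc17a6 below it.

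When a single formative line was put through the same rule, 220 genes passed with 5ar1 and 337 with 5ar3. Of the 139 members, 110 passed with 5ar1 alone, 128 with 5ar3 alone and 99 with each. Those 99 genes were 45% of the list from 5ar1 and 29.4% of the list from 5ar3. Syt6, Penk, Mir302a, Mpped1, Ncan, Npas1 and Pak3 were among the members that did not pass with 5ar1, and Car14, Plek2, Phactr3 and Sox3 were among those that did not pass with 5ar3.

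The 2 EpiSC groups differ in line and in medium. The medium of EpiSC_AFX, like that of FS cells, has X in its name, and that of EpiSC_AF has not. Of the members, 18 were called between EpiSC_AFX and EpiSC_AF by edgeR's quasi-likelihood test, with 6.61% of all tested genes called. They were 16 genes higher in EpiSC_AFX (background 2.24%) and 2 lower (background 4.38%). The median log2 fold change was 0.14 over the members and 0.00 over all tested genes. On the neural list 3 of 18 genes were called lower in EpiSC_AFX, and on the list of primitive streak and endoderm genes 6 of 12, and their part in the members' differences was not tested.

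Plek2, a pleckstrin domain protein of the actin cytoskeleton, was at 1.10, 1.95 and 2.31 CPM in EpiSC_AFX and 0.0936, 0.0356 and 0.110 CPM in EpiSC_AF, a log2 fold change of 4.46 ± 0.50 (SE, adjusted p = 3.77e-05 by edgeR). Its ES libraries, at 1.60, 1.13, 1.64 and 1.46 CPM, were in the range of EpiSC_AFX. For Wdr86 the log2 fold change was 4.18 ± 0.61 (SE, adjusted p = 0.000484 by edgeR), and here too ES overlapped EpiSC_AFX. Hmgcll1, a lyase of ketone body synthesis, was at 1.88, 1.87 and 2.103 CPM in EpiSC_AFX and 0.187, 0.0713 and 0.0736 CPM in EpiSC_AF, a log2 fold change of 4.09 ± 0.51 (SE, adjusted p = 0.000111 by edgeR). In none of the 3 genes did the EpiSC groups overlap, and the EpiSC_AF libraries held 1 to 6 counts of each. Spag16 followed at 2.91 ± 0.73 (SE, adjusted p = 0.0228 by edgeR), with 23, 3 and 6 counts in EpiSC_AFX and 1, 2 and 1 in EpiSC_AF. It lost the call without any 1 of the EpiSC_AF libraries and without EpiSC_AFX 1, where the log2 fold change was 1.71 (adjusted p = 0.176 by edgeR). With only the EpiSC libraries in the fit, 131 of the 139 members passed the filter on low counts, and Spag16 did not. Phactr3, Nell2, Acot1, Thy1, Nphp4 and Cdh22 were higher by 1.83 to 2.75 on the log2 scale. Gpr162, Plcd1, Jph4, Doc2a, Ncan and Myb made up the rest of the 16, with log2 fold changes of 0.87 to 1.2.

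Igsf10, an immunoglobulin superfamily protein of the matrix, was lower in EpiSC_AFX, at 0.675, 0.896 and 0.120 CPM against 4.12, 4.10 and 4.82 CPM in EpiSC_AF, with a log2 fold change of -2.98 ± 0.44 (SE, adjusted p = 0.000549 by edgeR). Its ES libraries, at 1.64, 3.67, 3.07 and 1.18 CPM, were all above EpiSC_AFX, and its FS range was 13.1 to 24.4 CPM (median 20.9). The exons of Igsf10 overlap those of Med12l on the other strand, at 14.65 CPM in FS, so its counts are uncertain. Fam149a also passed, at -1.95 ± 0.55 (SE, adjusted p = 0.0432 by edgeR), and lost the call under scaling by column totals and 7 other alternatives. The count of 18 fell to 11 without EpiSC_AF 1, EpiSC_AF 2 or EpiSC_AFX 3, and rose to 29 with DESeq2.

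**Figure D4:**
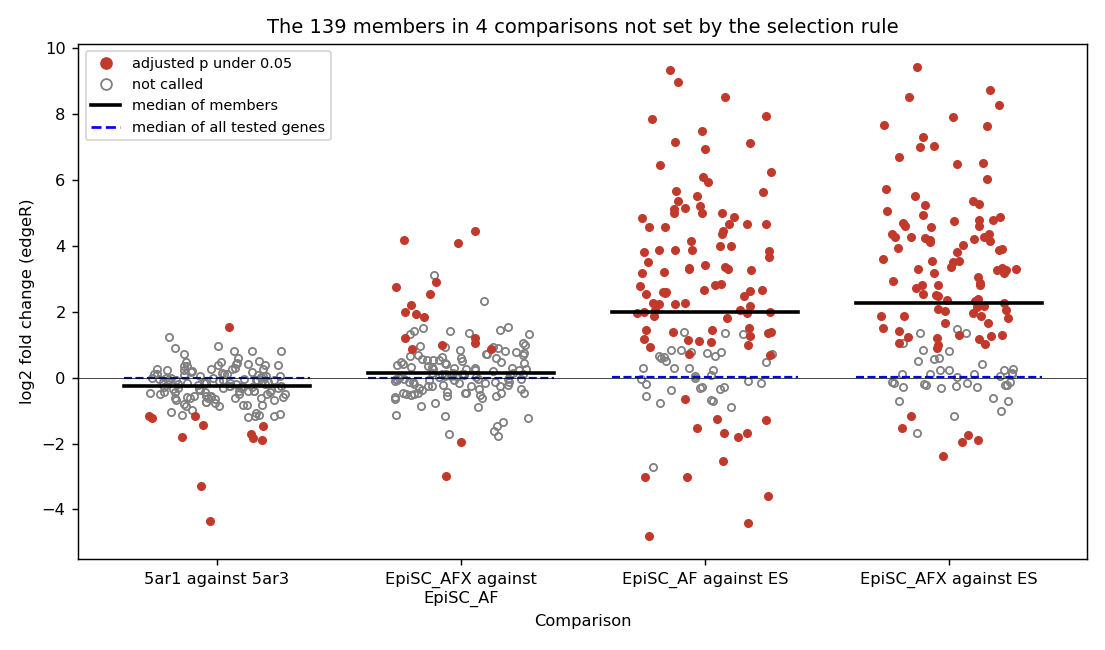
Log2 fold changes of the 139 members by edgeR in 4 comparisons, 1 circle per gene and spread sideways at random. Filled circles have an adjusted p under 0.05, the solid bar is the median of the members and the dashed bar the median of all 18555 tested genes. The members' median is 1.99 and 2.28 in the 2 comparisons with ES and close to 0 in the other 2.

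Whether the members were also higher in EpiSCs than in ES cells was tested in each EpiSC group. The 2 comparisons share the 4 ES libraries. Against ES, edgeR's quasi-likelihood test called 102 members in EpiSC_AF, with 58.6% of all tested genes called, and 100 in EpiSC_AFX, with 56.6% called. In EpiSC_AF 89 were higher (background 30.7%) and 13 lower (background 27.9%), and in EpiSC_AFX 94 were higher (background 29.4%) and 6 lower (background 27.2%). Median log2 fold changes were 1.99 and 2.28 over the members, and 1.99 and 2.19 with the 25 genes at the ES limit set to their bound. They were 0.01 in both comparisons over all tested genes. Under scaling by column totals the medians over all genes were 0.29 and 0.25, and 109 and 104 members were called. All 6 EpiSC libraries lay above all 4 ES libraries for 85 members (background 30.6%), and the reverse held for 1 (background 14.5%). Of the 18 neural genes, 15 were called higher in EpiSC_AF and 10 in EpiSC_AFX than in ES.

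Ank2 was higher than ES in both EpiSC groups, with log2 fold changes of 4.68 ± 0.25 (SE, adjusted p = 1.65e-10 by edgeR) in EpiSC_AF and 4.94 ± 0.26 (SE, adjusted p = 1.01e-10 by edgeR) in EpiSC_AFX. Sall2 gave 3.33 ± 0.26 (SE, adjusted p = 1.06e-08 by edgeR) in EpiSC_AF and 4.05 ± 0.26 (SE, adjusted p = 1.33e-09 by edgeR) in EpiSC_AFX. For both genes the lowest EpiSC library was above the highest ES library by a wide margin. Pak3 had 5 to 10 counts in an ES library and was higher by 5.15 and 5.28, and Ncan, with 2 to 9 counts, by 5.64 and 6.52 on the log2 scale. Car14, with 2 to 4 counts in an ES library, passed with an adjusted p of 1.03e-12 in EpiSC_AF and 7.62e-13 in EpiSC_AFX by edgeR. Lrrc4b, Fam155a, Jakmip2 and 2610307P16Rik had 0 or 1 count in each ES library and passed in both comparisons, with adjusted p by edgeR between 1.29e-11 for Jakmip2 and 2.14e-06 for Fam155a in EpiSC_AFX. Of Fam155a, a partner of a sodium leak channel, EpiSC_AF held 1.25, 1.03 and 1.32 CPM, EpiSC_AFX 0.497, 1.13 and 0.661 CPM, and ES 0 in each library.

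By role, all but 1 of the 10 synapse genes were higher than ES in each EpiSC group, the exception being Syt6. So were 16 and 17 of the 22 receptor and channel genes, 14 and 14 of the 20 adhesion and matrix genes, 13 and 16 of the 23 signalling genes and 9 and 9 of the 11 transcription and RNA genes, in EpiSC_AF and EpiSC_AFX. Of the 4 cilium genes 1 was higher in each, and of the 13 metabolic genes 7. The share over all tested genes was 30.7% in EpiSC_AF and 29.4% in EpiSC_AFX, which the cilium genes did not exceed. With only the groups compared in the fit, 124 members passed the filter on low counts for EpiSC_AF and 128 for EpiSC_AFX, and 86 and 88 of these were called higher.

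The members lower in EpiSCs than in ES were few. Ccdc166, Gm26870 and Tspyl3 were lower in both EpiSC groups. Ccdc166 and Tspyl3 left the set under each of the other scalings, and Gm26870 left it with TMM or DESeq2 size factors. Wdr86, Plek2, Spag16, Nphp4, Acot1, Hspa1a, Fbxo2 and Gm10800 were lower in EpiSC_AF and not called lower in EpiSC_AFX. Gm15283 was called lower in EpiSC_AF too, but held 2, 0 and 1 counts there and 0, 3, 3 and 20 in ES, and did not pass the filter on low counts in those 2 groups alone. Without ES 4 its log2 fold change was -1.47 (adjusted p = 0.254 by edgeR), beside -3.01 with it. The difference between these 2 results is the EpiSC_AFX against EpiSC_AF test given above, which called Wdr86, Plek2, Spag16, Nphp4 and Acot1. Against ES, the log2 fold change of Wdr86 was -4.80 ± 0.58 (SE, adjusted p = 2.35e-06 by edgeR) in EpiSC_AF and -0.62 ± 0.39 (SE, adjusted p = 0.184 by edgeR) in EpiSC_AFX. Hmgcll1 was called in opposite directions, at -1.81 in EpiSC_AF (adjusted p by edgeR = 0.0101) and 2.28 in EpiSC_AFX (adjusted p by edgeR = 0.000163). Hmgcll1 left the set with TMM or DESeq2 size factors. Igsf10, Ephb1 and Pygl were lower in EpiSC_AFX and not called in EpiSC_AF. The call of Pygl, at -1.96 ± 0.68 (SE, adjusted p = 0.0213 by edgeR), was lost under 7 of 16 alternatives, scaling by column totals, passage as a covariate and leaving out EpiSC_AFX 2, EpiSC_AFX 3 or ES 2 among them, and its log2 fold change was -3.92 without EpiSC_AFX 1 and -1.46 without EpiSC_AFX 3. For 26 members, among them Penk, Syt6, Tubb3, Prmt8, S1pr3, Nuak2 and Loxl1, neither comparison passed. Syt6 and Loxl1, for example, were under 0.3 CPM in every library of the 3 groups, while Nuak2 was at 6.26 to 11.3 CPM and Prmt8 at 0.648 to 2.24 CPM.

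Members were then counted over gene lists, which the rule did not use. The shares of genes with their highest mean in FS come from values that the rule used, and are description only. Of 73 ion channel genes with at least 3 CPM in FS, 8 were members (10.96%), beside 1.127% of all genes at that level, and 49 of the 73 (67.1%) had their highest mean in FS, beside 40.6%. They included Chrna7, Gabra3, Grik2, Hcn4, Kcna6, Kcnab2 and Kcng3, and 4 of the 8 were lost under at least 1 other scaling. The list was built on symbol patterns and did not hold Grin2b or Htr3a, which are channel genes too. Synaptic and neural adhesion genes gave 3 members of 31 (Cadm3, Igsf10 and Lrrc4b), with 24 of the 31 highest in FS. High shares were not particular to the channel and synaptic lists. Of 65 clustered histone genes 57 (87.7%) had their highest mean in FS, and 0 were members. Of 43 homeobox, Sox, Fox, Pou, Zic, Gata and Irx factors 29 (67.4%) did, and 1, Sox3, was a member. The cadherins outside the clusters gave 2 of 22, and the neural progenitor and neuron list 2 of 14 (Elavl3 and Tubb3). The lists of core and naive pluripotency, the Nodal and activin pathway, Wnt targets and FGF and ERK feedback gave none. Nor did those of the BMP pathway, the Hedgehog pathway and DNA methylation. These lists held 3 to 16 genes each at 3 CPM or more in FS. So few genes cannot show an absence beside the 1.127% of all genes. Of 323 zinc finger genes named Zfp at that level, 0 were members. Sall4, Otx2 and Dnmt3b, which were not members, averaged 260.2, 191 and 1448 CPM in FS. The next highest group was EpiSC_AF for Sall4 (219.5 CPM) and Otx2 (148 CPM) and EpiSC_AFX for Dnmt3b (910.1 CPM). These lists and counts describe the set, and no list was tested against another.

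Members tended to be long genes. The median span was 39.8 kb, beside 21.7 kb over genes with at least 3 CPM in FS, and 43 members (30.9%) spanned over 100 kb, beside 12.6%. Sorcs1 itself spans 535 kb and Ank2 578 kb, while Tubb3, Car14 and Sox3 are short. The median GC content of the longest transcript was 53.3% for members and 49.6% for that background. Protein-coding genes made up 128 of the 139 (92.1%, beside 89.1%). By chromosome, 16 members (11.5%) each lay on chromosomes 2 and 7, where 8.08% and 7.71% of the background lie. None lay on chromosome 16, where 2.89% of the background lies.

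A few members were neighbours, within 500 kb of each other. On chromosome 7, Fam57b, Doc2a and Sez6l2 followed each other with gaps of 17.2 and 97.9 kb. The exons of Fam57b overlap those of Aldoa, at 2296 CPM in FS, so its counts are uncertain. On chromosome 4, Draxin, Fbxo44 and Fbxo2 were separated by gaps of 22.1 and 0.138 kb, and Kcnab2 and Nphp4 overlap at their ends. Chrna7 and Otud7a were 232 kb apart on chromosome 7. Mir302a lay 46145 bases from Ank2, on the other strand. The 2 members differed in their pattern, with Mir302a higher in 5ar3 and Ank2 not called between the lines (adjusted p by edgeR = 0.338).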

How the data were processed

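RNA from 16 cultures of mouse pluripotent lines was sequenced as bulk libraries made with a directional kit, per the labels' protocols. The authors deposited 1 table of raw gene counts. Per the submitters' processing notes, the tools were Trim Galore, TopHat2 2.1.0 and featureCounts 1.5.0 with the mouse build mm10. The strand setting of the counting is not given in the sources used here, so overlapping and antisense genes are uncertain, as are near-identical copies. Not every member that shares exons with another gene was marked above. Of the deposited count columns, 6 matched no sample and were not used.

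Columns were matched to samples by their names, and groups came from the labels. CPM was each count over its column total. Positions came from GENCODE M21, on the same build as the counts, and matched all 139 members. Members followed the rule given with the results, which also drops Y-linked and mitochondrial genes, Nnat and H2-Q6. The members, their roles and the gene lists were chosen with earlier results of these data known. The 4 comparisons, which were not criteria of that rule, were fitted together with edgeR 4.0.16 in R 4.3.3. The quasi-likelihood test was used with TMM scaling, the edgeR filter on low counts, 1 mean per line and all 16 libraries. Benjamini-Hochberg adjustment ran over the 18555 genes tested, with a threshold of 0.05. The fit was checked on simulated counts. DESeq2 1.42.0 served as an alternative, beside other scalings, filters, folds, passage as a covariate and leaving out each library. Named genes were Wdr86, Sorcs1, the 10 members with the largest ratio over the next group, the 10 with the highest FS level, those at the edge of the fold rule, the 4 strongest called in each direction of a comparison and members of the lists. Members named outside that rule illustrate their role and were chosen after their values were seen, and 1 member is not reported by name here. Each library held at least 22069338 counts, so 3 counts corresponded to at most 0.136 CPM, and such limits cover counting error only.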

Additional observations from a re-analysis of the deposited data

Results flagged for a closer look

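Among 101 groups of 4 to 6 libraries screened over 60 named members, 8 held a library far from the rest, where chance alone marks about 1 in 20 groups. In FS the library was FS 4 in each case. It held Miat at 99.82 CPM, with 24.67 to 44.67 CPM in the other FS libraries. Cadm3 was at 10.2 CPM there, with 2.498 to 4.267 CPM in the others. Hcn4 was at 9.697 CPM, with 3.005 to 5.122 CPM in the others. FS 4 was also the highest FS library for 60 of the 139 members. In ES, 4 genes were high in ES 4, the latest passage. Gm15283 was at 0.8118 CPM (0 to 0.1262 in the others), Gm10800 at 0.5683 (0.3364 to 0.3753), Sox3 at 0.2841 (0.0432 to 0.0841) and Peg13 at 0.5277 (0 to 0.08339). Csgalnact1 was low in ES 1, at 0.216 CPM against 0.2841 to 0.2944 CPM.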

How the results depend on the processing

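The size of the set followed its thresholds and the FS libraries used. It was 139 as reported, 53 with a minimum of 10 CPM, 224 with a fold of 1.5, 77 with a fold of 3 and 287 when libraries were allowed to overlap. It was 220 with 5ar1 alone, 337 with 5ar3 alone and 284 without FS 3 and FS 6, the last an alternative chosen after seeing the data. Leaving out 1 library gave 130 to 205 genes, the most without FS 3. With TMM, DESeq2 size factors or totals without mitochondrial genes, 117, 119 and 131 genes passed.

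Between 5ar1 and 5ar3, 12 members were called, 7 with passage as a covariate, 6 when only those libraries were fitted and 1 when tested against a log2 change of 1. Leaving out 1 library gave 4 to 15, with 4 without FS 3, 5 without FS 2, 6 without FS 5 and 7 without FS 6. Between EpiSC_AFX and EpiSC_AF, 18 were called, 11 with passage as a covariate, 6 against a log2 change of 1 and 29 with DESeq2. Leaving out 1 library gave 11 to 18, the lowest without EpiSC_AF 1, EpiSC_AF 2 or EpiSC_AFX 3. The comparisons with ES called 91 to 103 members in EpiSC_AF and 97 to 101 in EpiSC_AFX when 1 library was left out. Where a count moved, the cause was not tested. For the 27 results on named genes in these comparisons, 418 settings were run, of which 374 kept direction and call, 44 lost the call and 0 turned the direction. No paired analysis was possible because the replicate numbers were given in accession order and pair no cultures. Members under 5 CPM in FS, 40 of the 139, carry the most counting error.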
